A study of Homo sapiens with 9 samples.

Results

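Cancer-testis antigen genes were followed across 3 human neuroblastoma cell lines: Kelly and BE(2)C, both labelled as MYCN amplified, and SH-SY5Y, labelled as without amplification. Each line had 3 libraries of polyadenylated RNA from untreated cells, 9 in all, and the labels do not say whether the libraries of a line came from separate cultures, so errors and p-values cover the spread among libraries alone, which may be technical. Kelly, BE(2)C and SH-SY5Y are established lines, and BE(2)C and SH-SY5Y are subclones of other neuroblastoma lines, so each group stands for 1 tumour-derived culture and not for a class of tumours. The members were taken by name: MAGEA, MAGEB, MAGEC, GAGE, PAGE, XAGE, SSX, CTAG and CSAG symbols, plus PRAME and PRSS21. The rule found 71 genes among 19706 usable gene symbols. Of these, 63 are counted here as antigen genes, 61 of them on the X chromosome, with PRAME on chromosome 22 and PRSS21 on chromosome 16. The other 8 (the CTAGE genes and SSX2IP) were matched by prefix and are given apart. The set was proposed with differences between these lines known, so its levels and its contrasts between lines are a description and carry no test.

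Cancer-testis genes are expressed in male germ cells and are silent in most other adult tissues, largely through methylation of cytosines in their CpG-rich promoters and through repressive chromatin. Tumours that lose this silencing make the proteins, and their peptides are shown to T cells on MHC class I molecules, which is how MAGEA1, the first of the family, was found. The MAGE proteins bind RING-type ubiquitin ligases, and MAGEA3, MAGEA6 and MAGEC2 are known partners of TRIM28; PRAME is a substrate receptor of a CUL2 ligase; SSX proteins are chromatin repressors; PRSS21 (testisin) is a membrane-anchored serine protease of sperm. For GAGE, PAGE and XAGE proteins, small acidic proteins, the role is little known.

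Stretches of sequence upstream of 4 members are printed because their genes differ in pattern across the lines: GAGE12J and PRSS21 (high in Kelly, listed at 0 in the other lines), MAGEA3 (high in SH-SY5Y, lower in Kelly, at 0 in BE(2)C) and MAGEC1 (above 0 in SH-SY5Y). Each is 200 bases of the RefSeq promoter window (GRCh38.p14) that ends 51 bases before the annotated start, written along the gene's strand, with each CG, the site of methylation, in capitals. The first 2 hold 4 CG pairs each and the other 2 hold 7 each. The full windows, which take in the bases around the start, hold 13 (GAGE12J), 19 (PRSS21), 19 (MAGEA3) and 14 (MAGEC1). The split of the stretches is therefore not seen over the full windows. The MAGEA3 stretch holds CCGGAA, the core that ETS-family factors bind. The full 300-base windows of MAGEA3 and MAGEA6 were identical at all 300 bases, and those of GAGE12J and 6 other GAGE genes were identical as well, 7 windows in all.
GAGE12J, chrX:49321787-49321986, plus strand: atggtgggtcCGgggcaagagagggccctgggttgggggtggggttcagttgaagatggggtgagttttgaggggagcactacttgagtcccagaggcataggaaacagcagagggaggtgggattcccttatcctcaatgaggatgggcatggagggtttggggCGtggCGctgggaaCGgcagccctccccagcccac
PRSS21, chr16:2816987-2817186, plus strand: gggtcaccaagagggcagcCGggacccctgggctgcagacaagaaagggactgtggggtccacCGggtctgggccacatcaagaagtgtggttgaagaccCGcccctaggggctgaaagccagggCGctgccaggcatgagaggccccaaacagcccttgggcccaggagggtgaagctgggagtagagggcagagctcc
MAGEA3, chrX:152698544-152698743, plus strand: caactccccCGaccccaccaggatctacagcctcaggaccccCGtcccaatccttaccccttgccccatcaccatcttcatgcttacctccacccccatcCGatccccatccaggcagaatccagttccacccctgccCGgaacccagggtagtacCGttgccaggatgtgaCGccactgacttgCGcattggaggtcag
MAGEC1, chrX:141903644-141903843, plus strand: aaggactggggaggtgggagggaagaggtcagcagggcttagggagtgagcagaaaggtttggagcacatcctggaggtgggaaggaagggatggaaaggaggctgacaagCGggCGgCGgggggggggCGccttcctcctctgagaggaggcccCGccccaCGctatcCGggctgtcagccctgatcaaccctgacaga

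GAGE and PAGE genes are related families on Xp11, and the short stretches around the hexamer CACGTG near the starts of GAGE12J and PAGE1 are shown because the 2 genes shared a pattern across the lines. They agree at 29 of 30 bases. CACGTG, the E-box that MYC-family factors bind, is in capitals. The hexamer is not particular to genes with this pattern. It is also in the window of PAGE5, which reached a mean of 1 in SH-SY5Y alone. The windows of GAGE10, PAGE2B, PAGE4 and XAGE3 hold it too, and these genes stayed under 1 in every line. The third stretch is the 35 bases between the start sites of MAGEA12 and CSAG1, which face away from each other; its CG pairs are in capitals.
GAGE12J, chrX:49322048-49322077, plus strand: ggccccttcgccCACGTGaagaacgccagg
PAGE1, chrX:49695973-49696002, minus strand: ggccccttcgccCACGTGgagaacgccagg
MAGEA12 and CSAG1, chrX:152733722-152733756, plus strand: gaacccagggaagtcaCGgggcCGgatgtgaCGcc

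Levels are given as scaled TPM, the deposited TPM values rescaled to the genes alone; they are per transcript length, so levels of different genes can be set side by side. A cell type check placed the libraries with neuroblasts: 10 of 11 neuroblast markers averaged at least 10 scaled TPM in every line. Of 12 germ cell markers, 6 were at 0 in all 9 libraries, DDX4, DAZL, PRM1 and PRM2 among them, and the summed level of the list ran over 1.04 to 3.37 in Kelly, 1.27 to 3.23 in BE(2)C and 12.02 to 17.2 in SH-SY5Y, most of it PIWIL1 in SH-SY5Y. The summed levels of 5 leukocyte markers (2.72 to 8.32, 6.75 to 13.3 and 5.19 to 6.51 in Kelly, BE(2)C and SH-SY5Y) and of 5 epithelial markers (0.0630 to 1.33, 0.475 to 1.27 and 1.15 to 1.94) were low in every library; their part in the results was not tested. A value of 0 cannot be read as absence, because TUBB, a tubulin gene that dividing cells use, was listed at 0.275, 0 and 0.414 in SH-SY5Y, against 22.95 to 31.04 in the other lines. The relative levels of the RNA spike-ins also differed between Kelly and the other lines, by up to 1.42 (log2) for Kelly against SH-SY5Y and up to 1.24 for Kelly against BE(2)C, while BE(2)C and SH-SY5Y differed by up to 0.18; the part of this in differences with Kelly was not tested.

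The 63 antigen genes together stood at 530, 506 and 539 scaled TPM in the 3 Kelly libraries, 8.01, 6.18 and 4.05 in BE(2)C, against 322, 322 and 318 in SH-SY5Y. The means were 525 ± 17.3 in Kelly, 6.08 ± 1.98 in BE(2)C, against 321 ± 2.15 in SH-SY5Y (SD, n = 3 each), so the groups did not overlap, as for 58.3% to 66.1% of all single genes tested between 2 lines. A mean of 1 or more was reached by 21 antigen genes in Kelly, 2 in BE(2)C, against 13 in SH-SY5Y. A mean of 10 or more was reached by 9 in Kelly, 0 in BE(2)C, against 7 in SH-SY5Y. In BE(2)C 56 of the 63 were listed at 0 in all 3 libraries, against 27 in Kelly and 33 in SH-SY5Y. Of the pair labelled as MYCN amplified, Kelly had the highest summed level and BE(2)C the lowest. In bulk RNA, fewer expressing cells and less RNA per cell cannot be told apart.

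**Figure D1:**
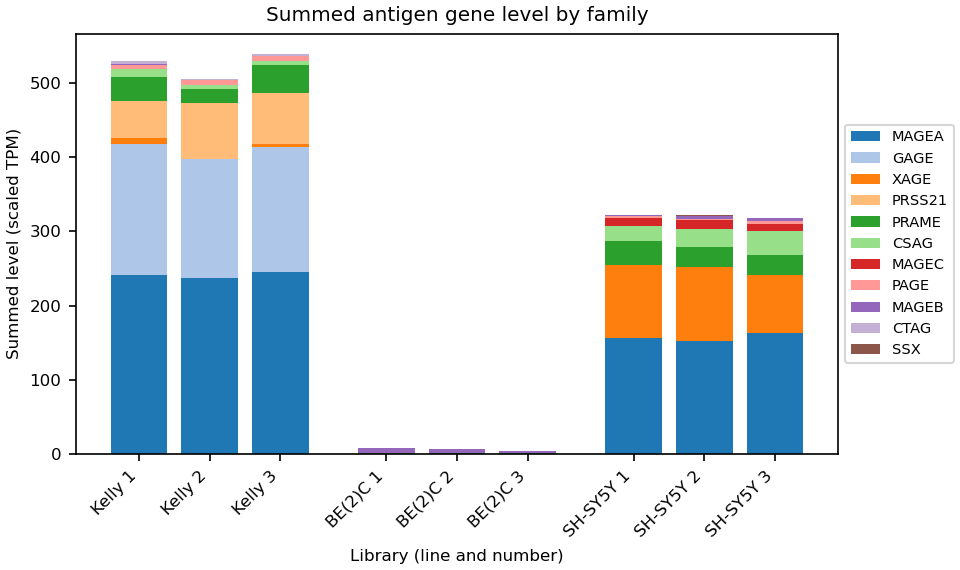
Stacked bars give the summed scaled TPM of each antigen gene family (y axis) in each of the 9 libraries (x axis, numbered within a line). Kelly bars reach 506 to 539, with MAGEA, GAGE and PRSS21 as the main parts, BE(2)C bars 4.05 to 8.01, and SH-SY5Y bars 318 to 322, with MAGEA and XAGE as the main parts.

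Kelly and SH-SY5Y drew on different families. MAGEA genes summed to 241 ± 4.22 in Kelly and 157 ± 5.42 in SH-SY5Y, and to 0.249 ± 0.0686 in BE(2)C (SD, n = 3 each). GAGE genes summed to 169 ± 7.68 in Kelly (n = 3) and were listed at 0 in every BE(2)C and SH-SY5Y library. XAGE genes, in contrast, summed to 92.6 ± 11.8 in SH-SY5Y (n = 3), against 7.41, 0.00151 and 3.85 in the Kelly libraries and 0 in BE(2)C. Of the 25 antigen genes with a mean of 1 or more in some line, 12 reached it in Kelly alone, 8 in Kelly and SH-SY5Y, 3 in SH-SY5Y alone, 1 (MAGEB2) in BE(2)C and SH-SY5Y, and 1 (PRAME) in all 3 lines.

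**Figure D2:**
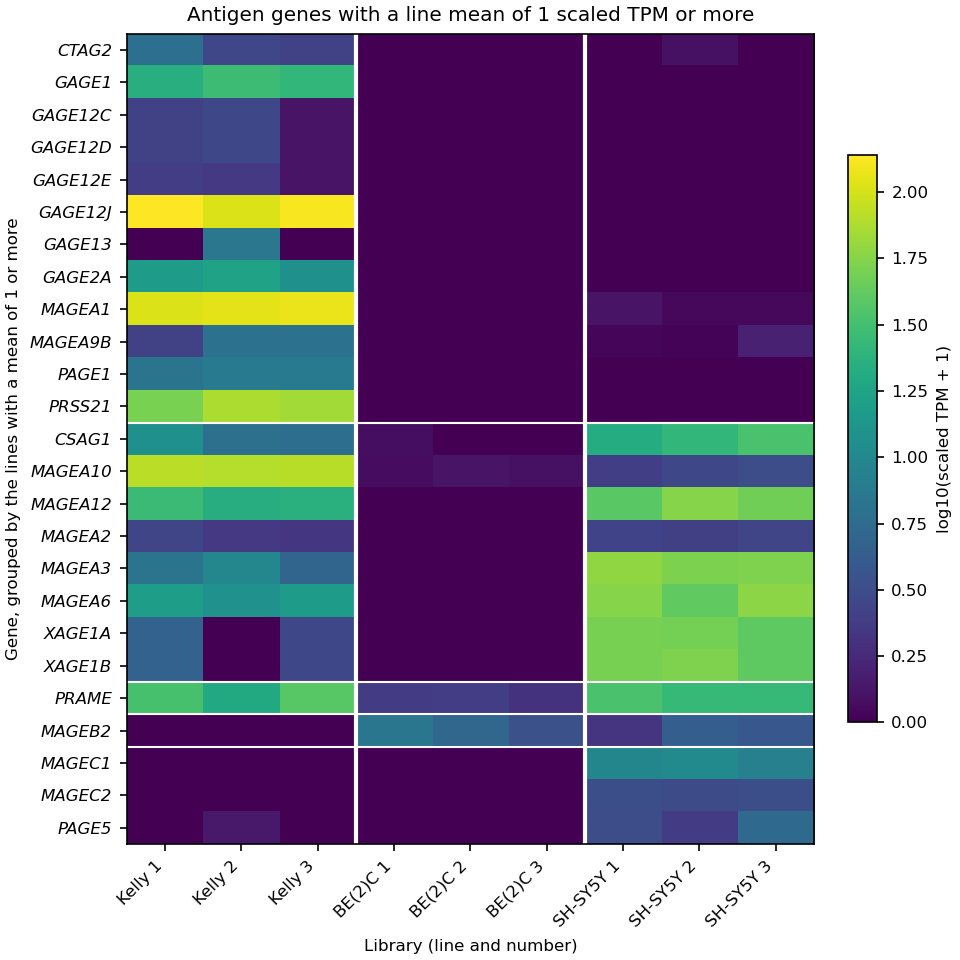
Colour gives log10(scaled TPM + 1) of the 25 antigen genes with a mean of 1 or more in a line (rows, grouped by the lines that reach it) in the 9 libraries (columns). The top block of 12 genes is lit in Kelly, the next block of 8 in Kelly and SH-SY5Y, PRAME in all 3 lines, MAGEB2 in BE(2)C and SH-SY5Y, and the lowest block of 3 in SH-SY5Y.

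GAGE genes lie as a tandem array of near-identical copies on Xp11, spanning 304.9 kb here (chrX:49303669-49608536, GENCODE v29, GRCh38). GAGE12J was the leading entry, with 137, 106 and 131 scaled TPM in Kelly. GAGE1 had 20.7, 28.4 and 25.0 and GAGE2A had 13.9, 16.2 and 10.96. GAGE12C, GAGE12D and GAGE12E averaged 1.28, 1.28 and 1.004 in Kelly. All of these were listed at 0 in the BE(2)C and SH-SY5Y libraries, so no fold is given. GAGE12J took 77.3%, 65.6% and 77.7% of the GAGE sum in the 3 Kelly libraries. Its split from the other copies is uncertain: of the 31-base windows of its transcripts only 6.07% occur in no other gene, 89.6% also occur in GAGE13, and in the library with the lowest GAGE12J share GAGE13 was listed at 6.03, against 0 in the other Kelly libraries. The GAGE sum was 177, 162 and 169 in Kelly.

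Beside the array, 78.9 kb past its last gene, PAGE1 had 5.59, 6.41 and 6.61 scaled TPM in Kelly and was listed at 0 in the BE(2)C and SH-SY5Y libraries. PAGE1 shares little sequence with GAGE transcripts: 98.3% of its windows occur in no other gene. PAGE5, another family member on Xp11, had the other pattern, with 0, 0.388 and 0 in Kelly, 0 in every BE(2)C library and 2.20, 1.36 and 4.41 in SH-SY5Y. The hexamer CACGTG was found, on both strands, in the windows of 12 of 12 GAGE genes with an entry, of 17 of 55 antigen genes in all (30.9%), and of 7.26% of 35116 RefSeq promoter windows of the same length. GAGE windows are copies of one another, so the 12 are not independent.

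PRSS21 (chr16:2817180-2826304), outside the X chromosome, had 50.5, 74.3 and 69.0 scaled TPM in Kelly and was listed at 0 in all BE(2)C and SH-SY5Y libraries. Of its windows, 98.9% occur in no other gene. MAGEA1 (chrX:153179285-153183880) had 105.6, 110.65 and 117.65 in Kelly, 0 in every BE(2)C library and 0.291, 0.118 and 0.110 in SH-SY5Y. The difference between Kelly and SH-SY5Y was 6.58 ± 0.15 (SE) on the log2(scaled TPM + 1) scale, on which differences of low values are understated. MAGEA10 (chrX:152133310-152138578) had 82.5, 78.0 and 80.5 in Kelly, 0.170, 0.293 and 0.238 in BE(2)C, against 1.52, 1.91 and 2.20 in SH-SY5Y. Its difference was 4.83 ± 0.16 (SE) for Kelly against SH-SY5Y, -1.22 ± 0.16 for BE(2)C against SH-SY5Y and 6.04 ± 0.16 for Kelly against BE(2)C, and the 3 lines did not overlap. Of the windows of MAGEA1 and MAGEA10, 93.0% and 78.4% occur in no other gene. MAGEA9B, at 1.60, 5.46 and 5.38 in Kelly, and CTAG2 (LAGE-1), at 5.05, 1.88 and 1.63, completed the Kelly pattern at low levels. The closely related CTAG1A and CTAG1B, which encode NY-ESO-1, summed to at most 0.234 in any library.

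The block from MAGEA3 to MAGEA6 (chrX:152698752-152769747, 71.0 kb) lies between MAGEA10 and MAGEA1 and had a different order of lines. MAGEA3 had 5.62, 8.81 and 3.99 scaled TPM in Kelly, 0 in every BE(2)C library and 59.4, 51.5 and 52.1 in SH-SY5Y. MAGEA6 had 14.6, 10.999 and 13.9 in Kelly, 0 in every BE(2)C library and 55.7, 40.2 and 57.4 in SH-SY5Y. These 2 encode nearly the same protein and share most of their transcript (67.9% of MAGEA3 windows occur in MAGEA6), so their sum is the firmer value. It was 20.2, 19.8 and 17.9 in Kelly, 0 in BE(2)C, against 115, 91.7 and 109 in SH-SY5Y, and Kelly was lower than SH-SY5Y by 2.39 ± 0.14 (SE; log2 difference -2.39). MAGEA6 made up 72.2%, 55.5% and 77.7% of the sum in Kelly and 48.4%, 43.8% and 52.4% in SH-SY5Y.

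MAGEA12 (chrX:152733779-152737669) and CSAG1 (chrX:152727484-152733735) sit head to head inside this block and followed it. MAGEA12 had 27.9, 20.7 and 21.7 scaled TPM in Kelly, 0 in every BE(2)C library and 37.7, 55.5 and 46.7 in SH-SY5Y, a log2 difference of -0.96 ± 0.18 (SE) for Kelly against SH-SY5Y. That difference is within the size of the spike-in shifts between these lines. CSAG1 had 10.9, 5.20 and 4.97 in Kelly, 0.206, 0 and 0 in BE(2)C, against 20.1, 24.8 and 32.6 in SH-SY5Y, a log2 difference of -1.79 ± 0.29 (SE) for Kelly against SH-SY5Y. MAGEA2 with MAGEA2B, in the same block, summed to 2.83, 1.93 and 1.56 in Kelly, 0 in BE(2)C, against 1.92, 2.29 and 3.22 in SH-SY5Y, and there Kelly and SH-SY5Y overlapped. So along one stretch of Xq28 the outer genes, MAGEA10 and MAGEA1, were higher in Kelly, and MAGEA3, MAGEA6, MAGEA12 and CSAG1 were higher in SH-SY5Y.

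**Figure D3:**
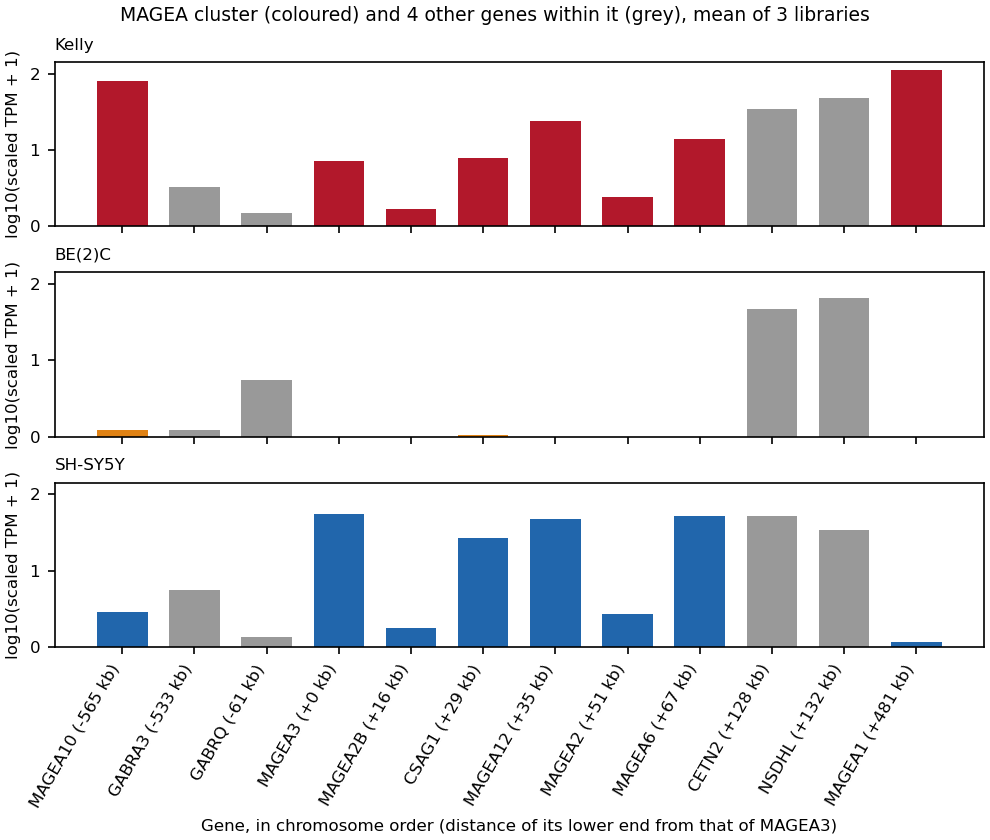
Bars give the mean log10(scaled TPM + 1) of 3 libraries (y axis) for MAGEA and CSAG genes (coloured) and 4 non-member genes among them (grey) in chromosome order (x axis, distance from MAGEA3 in kb; other genes of the interval are not drawn), 1 panel per line. In BE(2)C the MAGEA bars are at or near 0, while the grey bars of CETN2 and NSDHL stand at means of 45.9 and 65.2 scaled TPM; the outer genes are tallest in Kelly and the MAGEA3 to MAGEA6 block is tallest in SH-SY5Y.

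XAGE1A and XAGE1B (chrX:52495676-52520803) are copies on Xp11, and their sum was 7.41, 0.00151 and 3.85 scaled TPM in Kelly, 0 in every BE(2)C library and 97.8, 100.8 and 79.1 in SH-SY5Y. No 31-base window of XAGE1A and 23.8% of those of XAGE1B occur in no other gene, and the 2 entries had equal values except in SH-SY5Y replicate 2 (48.3 and 52.5), so their sum is used. Kelly and SH-SY5Y did not overlap, at a log2 difference of -4.76 ± 0.63 (SE). The Kelly libraries themselves were far apart, and the second was at almost 0. For the sum, Kelly was called higher than BE(2)C (log2 difference 1.78 ± 0.63 (SE), limma adjusted p = 0.0397). The sum was not fitted again with libraries left out, so what follows is for the single entry. The call of XAGE1A as higher in Kelly than in BE(2)C (log2 difference 1.26) was lost without Kelly replicate 1 (0.78) or Kelly replicate 3 (1.12), and also without any 1 of the BE(2)C or SH-SY5Y libraries, where the difference stayed at 1.26 and the limma adjusted p ran over 0.0623 to 0.0957.

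**Figure D4:**
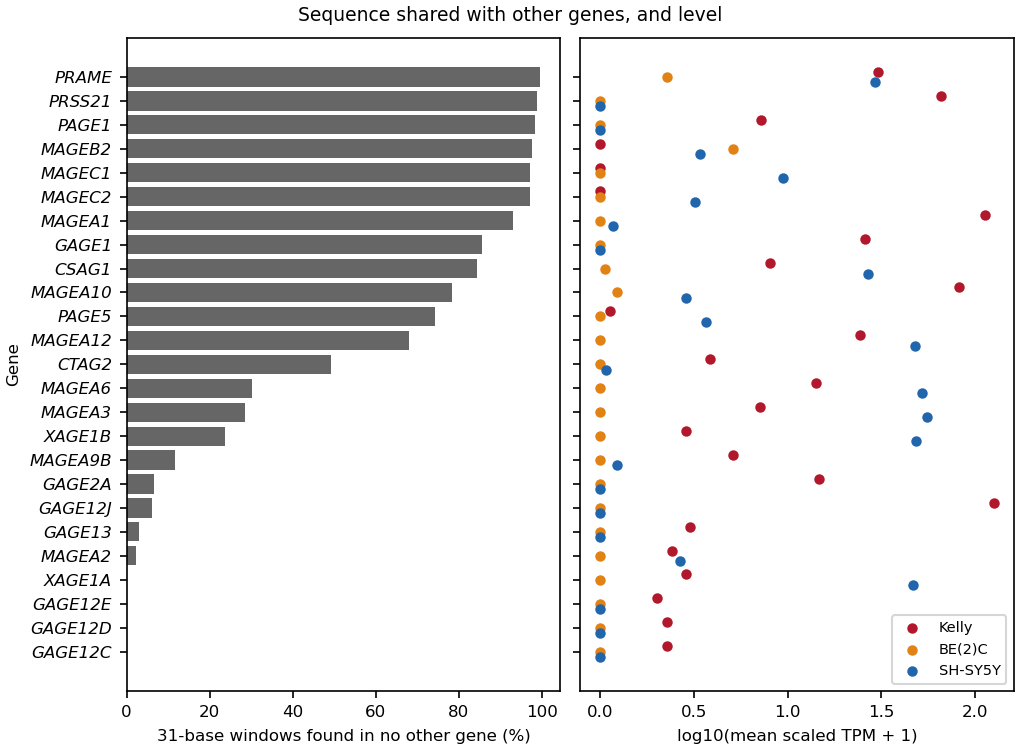
Left, the share of 31-base windows of each gene's transcripts that occur in no other gene (x axis, %), for the 25 antigen genes with a mean of 1 or more in a line; right, log10(mean scaled TPM + 1) of the same genes in the 3 lines (x axis, points; n = 3 libraries). PRAME, PRSS21, PAGE1, MAGEC1 and MAGEA1 rest on 93.0% or more of their own windows, while GAGE12J (6.07%), XAGE1A (0%) and MAGEA2 (2.19%) are read as groups of copies.

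On Xq27, MAGEC1 had 8.51, 9.46 and 7.54 scaled TPM in SH-SY5Y and MAGEC2, a partner of TRIM28, had 2.25, 2.13 and 2.26. Both were listed at 0 in every Kelly and BE(2)C library, and 97.2% and 97.1% of their windows occur in no other gene. MAGEB2, on Xp21, was the highest antigen gene in BE(2)C: it was listed at 0 in all Kelly libraries, had 5.94, 4.06 and 2.38 in BE(2)C, against 1.08, 3.39 and 2.79 in SH-SY5Y. BE(2)C and SH-SY5Y overlapped, at a log2 difference of 0.59 ± 0.33 (SE); without BE(2)C replicate 3 it was 0.86 and called, and with quantile normalization 0.98 and called. The other 9 MAGEB genes and the 8 SSX genes stayed under a mean of 1 in every line, with the SSX sum at most 0.780 in any library.

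PRAME (chr22:22547701-22559361) was the antigen gene above 1 in all 9 libraries. It had 31.9, 18.9 and 37.4 scaled TPM in Kelly, 1.34, 1.43 and 1.06 in BE(2)C, against 32.6, 26.2 and 26.2 in SH-SY5Y. Kelly and SH-SY5Y overlapped, at a log2 difference of 0.00 ± 0.24 (SE), and both lay apart from BE(2)C, which was lower by 3.68 ± 0.24 than SH-SY5Y (log2 difference -3.68). Of its windows, 99.5% occur in no other gene.

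Of the 71 genes, 23 (21 antigen genes) reached 1 or more in at least 3 libraries and entered the fit across all genes; the others had no call. A call is a Benjamini-Hochberg adjusted p under 0.05 from limma over 13076 genes. Between Kelly and SH-SY5Y 20 of the 23 were called, 10 higher and 10 lower in Kelly, where 55.3% of all tested genes were called (28.1% higher and 27.2% lower). Between BE(2)C and SH-SY5Y 14 passed, 1 higher (CTAGE5, given apart) and 13 lower in BE(2)C. There 59.4% of all tested genes passed (28.6% higher and 30.7% lower). Between Kelly and BE(2)C 19 were called, 18 higher and 1 (MAGEB2) lower in Kelly, where 52.5% of all tested genes were called (27.9% higher and 24.6% lower). Libraries that do not overlap between 2 lines, as given for genes above, are common here: 63.7% of all tested genes for Kelly and SH-SY5Y, 66.1% for BE(2)C and SH-SY5Y and 58.3% for Kelly and BE(2)C. The comparisons share libraries, and nothing is read from these counts, since the members were proposed with these contrasts known and a low gene enters the fit only through a line where it is high. The median log2 differences of the 23 were -0.08, -1.22 and 2.78 in that order of comparisons, against -0.01, -0.04 and 0.03 over all tested genes.

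Among the 8 genes given apart, SSX2IP encodes a centrosome and cell adhesion protein that binds SSX2. SSX2IP had 16.5, 23.5 and 15.6 scaled TPM in Kelly, 8.25, 10.9 and 8.85 in BE(2)C, against 18.6, 19.3 and 19.9 in SH-SY5Y. CTAGE5, which takes part in export from the endoplasmic reticulum, had 2.18, 2.85 and 2.38 in Kelly, 3.12, 2.02 and 2.06 in BE(2)C, against 0.828, 0.567 and 0.605 in SH-SY5Y. The other 6 CTAGE genes were under 1 in every line.

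CpG counts in the promoter windows were not used by the rule. The 55 antigen genes with a RefSeq window held a median of 12 CG pairs (1 to 21), against 14 over all 35116 windows. Those with a mean of 1 or more in a line had a median of 13 (22 genes) and the others 10 (33 genes); copies share windows, so these are descriptions. CCGGAA, searched on both strands, was in 4 of 55 windows (7.27%, against 17.2% of all windows): MAGEA3, MAGEA6, PRAME and MAGEB6. In MAGEA3 and MAGEA6 it begins 113 bases before the start.

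Position was not used by the rule either, so neighbours were tested. Of 65 other genes within 100 kb of a member, 36 were tested. Between Kelly and SH-SY5Y 21 were called (11 higher and 10 lower in Kelly, against 55.3% of all genes), between BE(2)C and SH-SY5Y 16 (9 higher and 7 lower in BE(2)C, against 59.4%), and between Kelly and BE(2)C 15 (6 higher and 9 lower in Kelly, against 52.5%). Without the trimmed-mean factor the splits were 7 and 10, 4 and 9, and 9 and 4, and on the values as deposited 1 and 15, 2 and 10, and 1 and 10. Medians were 0.01, 0.15 and -0.16. The shares of neighbours called are near or under those of all genes.

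On Xq28, transcripts of non-member genes were measured in BE(2)C. NSDHL, an enzyme of cholesterol synthesis 61220 bases from MAGEA6, had 47.3 ± 2.51 scaled TPM in Kelly, 65.2 ± 8.22 in BE(2)C, against 33.0 ± 0.218 in SH-SY5Y (SD, n = 3 each), and was higher in BE(2)C, relative to SH-SY5Y (log2 difference 0.96 ± 0.10 (SE), limma adjusted p = 3.28e-05). CETN2, a centrin next to it, had 33.4 ± 6.85, 45.9 ± 2.61 and 51.6 ± 1.62 in Kelly, BE(2)C and SH-SY5Y. Chosen after their values were seen, the receptor subunit genes GABRA3 and GABRQ inside the cluster had opposite patterns. GABRA3, beside MAGEA10, averaged 2.27 ± 0.752 in Kelly, 0.219 ± 0.132 in BE(2)C, against 4.53 ± 0.360 in SH-SY5Y. GABRQ, beside MAGEA3, averaged 0.506 ± 0.108 in Kelly, 4.55 ± 0.537 in BE(2)C, against 0.337 ± 0.0516 in SH-SY5Y, and was higher in BE(2)C, relative to SH-SY5Y (log2 difference 2.05 ± 0.15 (SE), limma adjusted p = 3.54e-06).

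Some of the other called neighbours lay off Xq28. SLC38A5, an amino acid transporter 46627 bases from SSX4B on Xp11, averaged 30.2 ± 4.16 scaled TPM in Kelly, 0.264 ± 0.394 in BE(2)C, against 0.243 ± 0.246 in SH-SY5Y (log2 difference of Kelly against SH-SY5Y 4.66 ± 0.25 (SE), limma adjusted p = 5.64e-07), although SSX4 and SSX4B themselves summed to at most 0.201 in any library. ZNF280A, a zinc finger gene 27431 bases from PRAME and chosen after its values were seen, averaged 5.89 ± 1.49 in Kelly and was listed at 0 in BE(2)C, against at a mean of 0.0313 in SH-SY5Y (log2 difference of Kelly against SH-SY5Y 2.72 ± 0.18 (SE), limma adjusted p = 2.02e-06), although PRAME was as high in SH-SY5Y as in Kelly. PPP1R3F, 2208 bases from GAGE10, was not higher in Kelly: it averaged 8.29 ± 0.936, 9.65 ± 1.07 and 16.8 ± 1.29 in Kelly, BE(2)C and SH-SY5Y, and was lower in Kelly than in SH-SY5Y (log2 difference -0.94 ± 0.15 (SE), limma adjusted p = 5.77e-04). Like that of MAGEA12, this PPP1R3F difference is within the size of the spike-in shifts between Kelly and SH-SY5Y.

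Other genes listed as cancer-testis genes, 75 that the name rule does not take in (73 in the table), were called in both directions in each comparison. Their restriction to testis was not checked. Of these 10 were tested: 3 were higher and 2 lower in Kelly than in SH-SY5Y, 3 higher and 2 lower in BE(2)C than in SH-SY5Y, and 3 higher and 4 lower in Kelly than in BE(2)C, where 55.3%, 59.4% and 52.5% of all tested genes were called. A mean of 10 or more was reached by 3 of them in Kelly, 4 in BE(2)C, against 2 in SH-SY5Y. IL13RA2, a decoy receptor of interleukin-13 on the X chromosome, had 53.3, 79.3 and 78.1 scaled TPM in BE(2)C and was listed at 0 in every Kelly and SH-SY5Y library (limma adjusted p = 2.06e-08 against SH-SY5Y). TDRD1, a Tudor protein of the germline piRNA pathway, had 0, 0 and 0.0573 in Kelly, 39.5, 30.03 and 28.7 in BE(2)C, against 0 in SH-SY5Y. Over all the gene lists, the marker lists included, 32 genes were higher and 20 lower in Kelly than in SH-SY5Y, 30 higher and 23 lower in BE(2)C against SH-SY5Y, and 22 higher and 20 lower in Kelly than in BE(2)C. Without the trimmed-mean factor these splits were 24 and 23, 19 and 36, and 35 and 12, and on the values as deposited 8 and 45, 15 and 39, and 16 and 20.

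The Kelly side of the same list held CT55, an X-linked testis antigen, at 38.7, 32.1 and 34.8 scaled TPM in Kelly, 0.922, 0.908 and 0.738 in BE(2)C, against 0.432, 0.963 and 1.30 in SH-SY5Y. It was higher in Kelly than in SH-SY5Y by 4.28 ± 0.20 (SE, log2; limma adjusted p = 2.61e-07). TPTE, a testis phosphatase-like protein, had 21.1, 19.4 and 19.8 in Kelly, 0 in BE(2)C, against 0, 0.238 and 0 in SH-SY5Y. SPA17, a sperm surface protein, ran the other way, at 0.334, 0.485 and 0.379 in Kelly, 14.2, 20.1 and 12.2 in BE(2)C, against 34.0, 12.2 and 22.4 in SH-SY5Y (log2 difference of Kelly against SH-SY5Y -3.98 ± 0.33 (SE), limma adjusted p = 8.91e-06). PIWIL1, a germline Argonaute protein from the germ cell marker list, had 0.955, 0.137 and 0.178 in Kelly, 0.351, 0.470 and 0.245 in BE(2)C, against 11.5, 17.0 and 11.7 in SH-SY5Y.

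Type II MAGE genes, the widely expressed relatives that the rule leaves out, were called in both directions in each comparison. Of 9 tested, 1 was higher and 5 lower in Kelly than in SH-SY5Y, 2 higher and 5 lower in BE(2)C than in SH-SY5Y, and 3 higher and 4 lower in Kelly than in BE(2)C, beside the same all-gene shares of 55.3%, 59.4% and 52.5%. MAGEH1 averaged 1.91 ± 0.718 scaled TPM in Kelly, 39.0 ± 1.73 in BE(2)C, against 37.9 ± 1.16 in SH-SY5Y (SD, n = 3 each; log2 difference of Kelly against SH-SY5Y -3.77 ± 0.17 (SE), limma adjusted p = 1.92e-07). MAGED1 averaged 28.7 ± 2.54 in Kelly, 66.6 ± 25.0 in BE(2)C, against 88.2 ± 1.07 in SH-SY5Y (log2 difference of Kelly against SH-SY5Y -1.59 ± 0.21 (SE), limma adjusted p = 1.68e-04). NDN (necdin), an imprinted growth suppressor, averaged 1.57 ± 0.443 in Kelly, 18.1 ± 2.88 in BE(2)C, against 1.84 ± 0.308 in SH-SY5Y, higher in BE(2)C, relative to SH-SY5Y, by 2.74 ± 0.20 (SE, log2; limma adjusted p = 3.55e-06).

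Genes of the silencing machinery were tested in the same fit. In a list of DNA methylation genes 16 were tested: 5 were higher and 3 lower in Kelly than in SH-SY5Y, 3 higher and 3 lower in BE(2)C than in SH-SY5Y, and 4 higher and 2 lower in Kelly than in BE(2)C. These are 8, 6 and 6 calls of 16, near or under the shares of all tested genes (55.3%, 59.4% and 52.5%). DNMT3A, a methyltransferase that sets new methylation, had 77.9, 77.8 and 81.8 scaled TPM in Kelly, 49.5, 47.0 and 52.4 in BE(2)C, against 83.5, 95.3 and 96.3 in SH-SY5Y, and was lower in BE(2)C than in SH-SY5Y (log2 difference -0.87 ± 0.08 (SE), limma adjusted p = 1.31e-05). DNMT1, which copies methylation after replication, had 101.3, 95.0 and 128 in Kelly, 94.9, 76.1 and 59.2 in BE(2)C, against 82.4, 58.5 and 84.4 in SH-SY5Y. BE(2)C and SH-SY5Y overlapped for DNMT1, at 0.02 ± 0.20 (SE, log2; limma adjusted p = 0.928). Its call as higher in Kelly than in SH-SY5Y (0.53 ± 0.20, adjusted p = 0.0482) was lost without any 1 of the Kelly libraries (adjusted p of 0.0769, 0.0520 and 0.156), without BE(2)C replicate 2 (0.0650), and without SH-SY5Y replicate 1 (0.0588) or SH-SY5Y replicate 2 (0.164). It was also lost on library totals (0.141), quantile normalization (0.0795), mitochondrial genes left out of the total (0.0518), a pseudocount of 0.1 (0.0507), no filter (0.0691) and the replicate block (0.0539).

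Of 22 tested genes of repressive chromatin, 10 were higher and 3 lower in Kelly than in SH-SY5Y, 5 higher and 5 lower in BE(2)C than in SH-SY5Y, and 5 higher and 0 lower in Kelly than in BE(2)C. These are 13, 10 and 5 calls of 22, against 55.3%, 59.4% and 52.5% of all tested genes. TRIM28, a corepressor and a partner of several MAGE proteins, averaged 799 ± 33.4 scaled TPM in Kelly, 234 ± 47.0 in BE(2)C, against 531 ± 8.21 in SH-SY5Y (SD, n = 3 each). It was lower in BE(2)C than in SH-SY5Y by 1.20 ± 0.12 (SE; log2 difference -1.20, limma adjusted p = 2.21e-05). PCGF6 and L3MBTL2, subunits of a Polycomb complex that represses germline genes in mouse, were lowest in SH-SY5Y. MGA, from the same list, was not: it averaged 28.1 scaled TPM in Kelly, 23.3 in BE(2)C, against 26.5 in SH-SY5Y. It was not called in any comparison. E2F6, also listed, averaged under 1 in every line and was not tested. The level of the complex as a whole was not tested. L3MBTL2 had 49.6, 54.6 and 50.2 in Kelly, 36.0, 33.9 and 30.2 in BE(2)C, against 2.86, 8.996 and 13.0 in SH-SY5Y, and PCGF6 had 24.1, 39.0 and 32.4 in Kelly, 34.8, 36.2 and 38.4 in BE(2)C, against 7.85, 20.3 and 9.01 in SH-SY5Y. Both were higher in BE(2)C, relative to SH-SY5Y, by 2.07 ± 0.39 and 1.60 ± 0.31 (SE, log2; limma adjusted p = 0.0013 and 0.0016).

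Of 10 tested partners of MAGE, PRAME and SSX proteins, 4 were higher and 0 lower in Kelly than in SH-SY5Y, 5 higher and 2 lower in BE(2)C than in SH-SY5Y, and 3 higher and 2 lower in Kelly than in BE(2)C, beside all-gene shares of 55.3%, 59.4% and 52.5%. RBX1, the RING subunit of cullin ligases such as that of PRAME, averaged 170 ± 25.3 scaled TPM in Kelly, 263 ± 18.1 in BE(2)C, against 64.7 ± 8.07 in SH-SY5Y, and was higher in BE(2)C, relative to SH-SY5Y, by 2.01 ± 0.12 (SE, log2; limma adjusted p = 9.53e-07). Of 8 tested genes of MHC class I presentation, 3 were higher and 1 lower in Kelly than in SH-SY5Y, 6 higher and 1 lower in BE(2)C than in SH-SY5Y, and 0 higher and 4 lower in Kelly than in BE(2)C, beside the same shares. B2M, the light chain of MHC class I molecules, averaged 14.2 ± 2.81 in Kelly, 31.4 ± 7.98 in BE(2)C, against 10.6 ± 3.68 in SH-SY5Y, and was higher in BE(2)C, relative to SH-SY5Y, by 1.51 ± 0.26 (SE, log2; limma adjusted p = 8.76e-04).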

How the data were processed

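The authors deposited 1 table of log10 values; from the values these are log10(TPM + 1), and GRCh38, Salmon 0.3.2 and HISAT 0.1.6 are named in the submitters' processing notes. Every column of values was used; the number of unused columns is 0. The table holds no counts, so depth is unknown and no counting interval is given. Between 83.7% and 90.6% of the TPM total was spike-in RNA, so values were rescaled to the gene total and divided by a trimmed-mean factor (30% of log ratios and 5% of levels trimmed; factors 0.758 to 1.17). limma 3.58.1 (R 4.3.3, trend method) was run on log2(scaled TPM + 1) with all 9 libraries, on the 13076 genes that reached 1 in 3 or more libraries, two-sided, and was checked on simulated data. The 28 entries that carry a date in place of a symbol counted toward totals and were not tested.

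Members, lists and tests were chosen with earlier results of these data known. Every member with a line mean of 10 or more, PRAME and PRSS21 are given in every library, others with a mean of 1 or more by name, and from each list up to 4 called genes per comparison with the largest differences; 1 gene that the rule names is not reported here. Coordinates are GENCODE v29 on GRCh38, held for 70 of 71 members. Promoter windows (250 bases before to 50 after the start, GRCh38.p14) and the sequences printed are RefSeq's, matched for 62 members by symbol. Windows of 31 bases were compared over GENCODE v29 transcripts. Replicate numbers did not pair the libraries.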

Additional observations from a re-analysis of the deposited data

How the results depend on the processing

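Counts of called members kept within 1.5 times under library totals over genes, quantile normalization, mitochondrial genes left out of the total, a pseudocount of 0.1, both other filters, summed copies and each library left out (20 to 20, 14 to 15 and 17 to 19 for Kelly against SH-SY5Y, BE(2)C against SH-SY5Y and Kelly against BE(2)C). On the values as deposited, where fewer members reached the filter (15), 12 were called between Kelly and BE(2)C in place of 19. There PRAME was called lower in Kelly than in SH-SY5Y, at -0.56 (limma adjusted p = 0.0097) in place of 0.00, not called. Of genes that are no members, TRIM28 (-0.12), DNMT1 (-0.17) and NSDHL (-0.16) between Kelly and SH-SY5Y changed sign and lost the call. Their limma adjusted p there was 0.540, 0.486 and 0.264. MAGEH1 between BE(2)C and SH-SY5Y also changed sign there, at -0.45 (limma adjusted p = 0.0047). That setting moved the median of all genes by -0.55 and -0.44 in those comparisons, and calls of a higher level made up 12.1%, 18.2% and 40.1%, and 41.5%, 23.6% and 74.3% on library totals, against 50.8%, 48.2% and 53.2% of all calls in the scaled values. Of 1128 differences of single members under the alternatives, 1102 kept direction and call and 21 lost the call (all of XAGE1A or XAGE1B between Kelly and BE(2)C). Another 4 gained it, and 1, PRAME on the values as deposited, changed sign and was called. These settings were applied to genes that are no members after seeing the data. With the replicate number as a block 20, 14 and 18 members, 49, 51 and 42 genes of the other lists and 18, 15 and 13 neighbours were called; same-numbered libraries did not deviate together (correlations -0.054 to 0.027), so the numbers name libraries and do not pair them. The cause of these changes was not tested. Without counts, low values have no stated precision.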
